A study of Mus musculus with 7 samples.

Results

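Usher syndrome is the inherited combination of deafness and progressive blindness. The genes described here are 8 mouse genes of Usher types 1, 2 and 3, chosen by symbol through a rule that uses no measured value, though with earlier results of these data known: *Myo7a*, *Ush1c*, *Ush1g*, *Cdh23* and *Pcdh15* of type 1, *Adgrv1* and *Whrn* of type 2, and *Clrn1* of type 3. Each symbol matched a single protein-coding gene of the annotation, so 8 of the 52550 genes in the count table were members, and all 8 passed the filter on low counts that left 20128 genes for testing. In the retina of SCA7 mice, 2 of the 8 genes were upregulated, *Myo7a* (FC 1.95) and *Clrn1* (FC 1.76), beside 7.47% of all genes tested. *Adgrv1*, the most abundant of them, was lower by a smaller step (FC 0.748), as was *Pcdh15* (FC 0.821). *Whrn*, *Ush1g*, *Cdh23* and *Ush1c* did not pass the test.

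The study profiled the transcriptome of the retina in mice with spinocerebellar ataxia type 7 (SCA7), a disease of the cerebellum and retina caused by a CAG expansion in *Atxn7*, the gene of ataxin-7, a subunit of the SAGA coactivator complex. WT mice (4) and homozygous SCA7 knock-in mice (3), all on the C57BL/6J background and 12.5 weeks old, gave 1 total RNA library each, made from the 2 retinas of the animal. The knock-in carries the expansion in exon 1 of both *Atxn7* alleles, so that all ataxin-7 is mutant, made from its own promoter in every cell type that uses the gene. The samples are whole retina, in which fewer cells of a type and less RNA per cell cannot be told apart.

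The WT libraries held 59902546 to 74733202 counts and the SCA7 libraries 56497675 to 96635832. Levels are given as CPM, the share of a gene in the TMM-scaled total of its library. *Atxn7*, the targeted gene, had 33.7–43.6 CPM in the WT libraries and 34.2–39.9 CPM in the SCA7 ones. Its log2FC was -0.06 (SE 0.09, adjusted p = 0.64), which checks no label, since the expansion lengthens the gene and deletes nothing. All markers of rods and cones examined were expressed, 10 of each, and all 20 were downregulated in SCA7, beside 7.91% of all genes tested. WT replicate 3 stood apart from the other WT libraries on the second principal component and had the lowest level of pigment epithelium markers, so log2FC values without it are given beside *Myo7a*, *Clrn1*, *Whrn* and *Ush1g*.

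Most Usher proteins are adaptors, motors or adhesion proteins, many of them large, that bind each other. In the hair cells of the inner ear they link and anchor the stereocilia: cadherin 23 and protocadherin 15 form the tip links, harmonin, SANS and myosin VIIa hold their upper end, and ADGRV1 and whirlin form the ankle links at the base. In photoreceptors ADGRV1 and whirlin lie at the periciliary membrane, beside the connecting cilium that feeds the outer segment. Myosin VIIa is found in photoreceptors and in the pigment epithelium, where it moves melanosomes, and in the mouse retina *Clrn1* is known from Müller glia.

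The promoters of the 4 genes that differed are shown, so that those that rose and those that were lower can be set side by side. CRX and NRL are transcription factors that set photoreceptor identity, and from other experiments the study listed *Adgrv1* as a CRX target and *Adgrv1*, *Pcdh15* and *Whrn* as NRL targets. Each window runs from 250 bases before to 50 bases after the RefSeq start site (GRCm38.p6), 5′ to 3′ on the strand of the gene, and 7 of the 8 genes had at least 1 window (8 windows in all, none for *Ush1g*). Capitals mark a match, on either strand, to the CRX motif TAATCC, the core TGCTGAC of the NRL motif, or the STAT motif TTCNNNGAA. In the order printed, the windows are chr7:98119444-98119743 on the minus strand, chr3:58885163-58885462 on the minus strand, chr13:81633095-81633394 on the minus strand and chr10:73821617-73821916 on the plus strand.
Myo7a: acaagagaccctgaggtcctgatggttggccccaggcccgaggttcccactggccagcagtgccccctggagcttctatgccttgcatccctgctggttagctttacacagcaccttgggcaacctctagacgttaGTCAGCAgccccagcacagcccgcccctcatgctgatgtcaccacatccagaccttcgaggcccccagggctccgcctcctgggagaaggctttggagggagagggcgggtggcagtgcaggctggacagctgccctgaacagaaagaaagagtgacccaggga
Clrn1: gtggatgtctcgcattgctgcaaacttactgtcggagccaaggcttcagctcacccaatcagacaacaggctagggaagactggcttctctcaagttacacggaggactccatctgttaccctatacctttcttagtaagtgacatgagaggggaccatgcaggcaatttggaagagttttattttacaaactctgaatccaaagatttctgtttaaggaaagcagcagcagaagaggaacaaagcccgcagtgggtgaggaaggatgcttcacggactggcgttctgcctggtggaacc
Adgrv1: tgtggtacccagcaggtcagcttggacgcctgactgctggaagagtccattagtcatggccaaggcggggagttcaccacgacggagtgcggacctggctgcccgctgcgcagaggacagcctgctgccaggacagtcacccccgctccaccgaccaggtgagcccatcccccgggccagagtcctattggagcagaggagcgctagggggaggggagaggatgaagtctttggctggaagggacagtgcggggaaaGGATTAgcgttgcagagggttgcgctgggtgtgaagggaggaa
Pcdh15: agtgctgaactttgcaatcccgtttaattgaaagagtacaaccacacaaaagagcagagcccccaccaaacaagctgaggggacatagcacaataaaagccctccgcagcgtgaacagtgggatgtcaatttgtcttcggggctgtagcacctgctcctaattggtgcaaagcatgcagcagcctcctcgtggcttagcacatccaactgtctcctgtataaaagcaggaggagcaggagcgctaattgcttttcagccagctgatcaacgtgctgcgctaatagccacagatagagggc

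The only match in the *Adgrv1* window was GGATTA, the CRX motif read on the other strand, at bases 8 to 13 with the start base counted as 1. The *Myo7a* window held GTCAGCA, the NRL core read on the other strand, from base -114 to base -108. The printed windows of *Clrn1* and *Pcdh15*, a second window of *Myo7a* and the windows of *Ush1c*, *Cdh23* and *Whrn* held none of these letters. Among all 32851 promoter windows, 7.06% held the CRX motif, 4.67% the NRL core and 8.3% the STAT motif, so 1 window of 8 with either of the first 2 is a description of letters and of no site. The *Pcdh15* window lies inside the span of the gene as GENCODE draws it, downstream of the most distal start.

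Expression levels were first set side by side per length, as RPK (normalised read counts per kb of the median transcript), because the genes differ widely in length. In WT retina *Adgrv1* was highest, at 14181 ± 838 RPK (SD, n = 4). *Pcdh15* followed at 2508 ± 175 RPK, *Myo7a* at 1950 ± 255 RPK, *Whrn* at 934 ± 132 RPK and *Clrn1* at 331 ± 51.8 RPK. *Ush1g* was at 51.9 ± 6.96 RPK, *Cdh23* at 15.1 ± 3.55 RPK and *Ush1c* at 5.12 ± 2.33 RPK. The WT ranges of neighbours in this order were separate except for *Pcdh15* and *Myo7a*, whose ratio was between 1.14 and 1.59 in the single libraries. The hair-cell genes of the tip-link complex were thus not at like levels in retina: *Pcdh15* was high, while *Cdh23*, whose protein is its partner in the tip link, and *Ush1c* and *Ush1g*, whose proteins anchor it, were the 3 lowest. *Myo7a*, whose protein also anchors the link, was not low and overlapped *Pcdh15* by this length.

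The order depended on the length used. *Myo7a* has 13 annotated transcripts with a median of 838 bases, many of them fragments, and a union of exons of 8566 bases. With the union of exons as length, the *Myo7a* level was 191 RPK and the *Whrn* level 335 RPK, in the reverse order, and *Cdh23* (3.33 RPK) and *Ush1c* (2.72 RPK) overlapped. *Adgrv1* (1362 RPK) and *Pcdh15* (556 RPK) were first and second by both lengths, and *Ush1g*, with a single transcript, was the same by both.

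**Figure D1:**
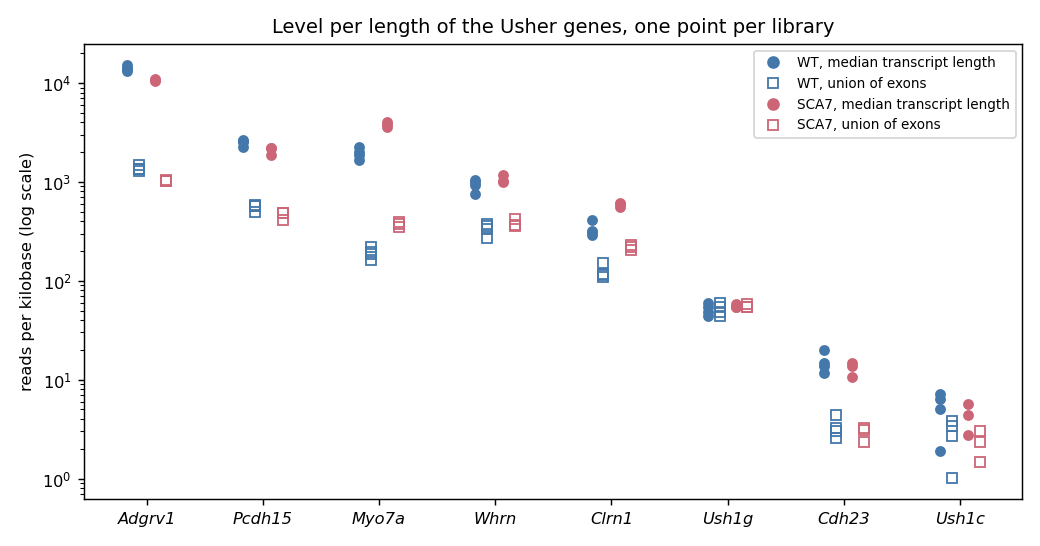
Level of each Usher gene in reads per kilobase (log scale), 1 point per library, WT in blue and SCA7 in red; filled circles use the median transcript length and open squares the union of exons. By the WT mean *Adgrv1* is highest and *Ush1c* lowest with both lengths, and the gap between circles and squares is widest for *Myo7a* and *Adgrv1*.

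Whether the knock-in changed these genes was tested in a model across all 20128 genes (edgeR quasi-likelihood test, Benjamini-Hochberg adjustment), with the limits used by the study: FC (SCA7/WT) under 0.7 or above 1.3 at an adjusted p under 0.05. By these limits 2 of the 8 Usher genes were upregulated, beside 7.47% of all genes tested, and 0 of 8 were downregulated, beside 7.91%. None of the 8 had FC under 0.7 at an unadjusted p under 0.05 either, in edgeR, DESeq2 or limma-voom. Without the FC limits 2 of 8 were higher and 2 of 8 lower at an adjusted p under 0.05, beside 14.2% of all genes tested in each direction. The median log2FC of the 8 genes was -0.06, and that of all genes tested -0.02. With 8 members these shares are a description only.

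**Figure D2:**
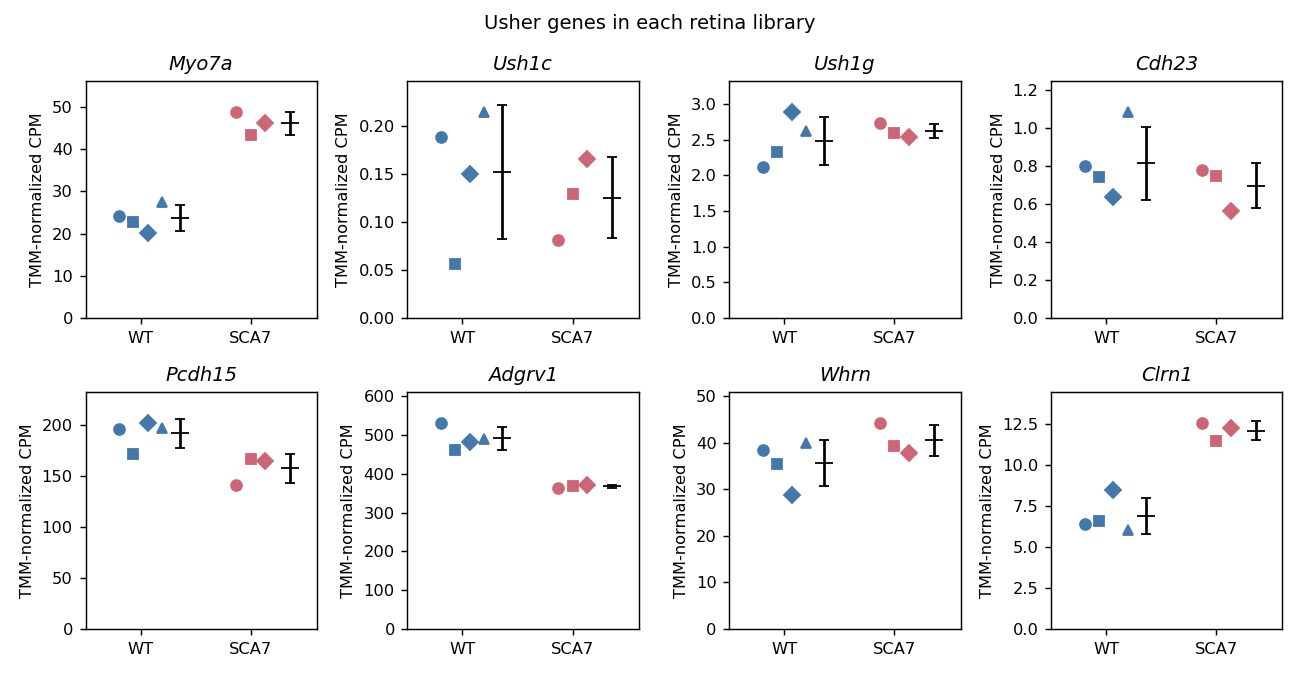
TMM-normalized CPM of the 8 Usher genes in each retina library (WT blue, SCA7 red; the symbols give the replicate number, which does not pair mice), with the mean and SD of each genotype as a black bar; every axis starts at 0. The SCA7 points lie above all WT points for *Myo7a* and *Clrn1*, below them for *Adgrv1* and *Pcdh15*, and overlap the WT range for the other 4 genes.

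*Myo7a* (ENSMUSG00000030761, chr7:98051060-98119524, minus strand, GRCm38) encodes myosin VIIa, an actin-based motor. It was at 24.1, 22.8, 20.2 and 27.6 CPM in the 4 WT libraries and at 48.8, 43.4 and 46.2 CPM in the 3 SCA7 libraries, from 1075 to 4752 counts. The lowest SCA7 library was well above the highest WT library, a separation in this direction that 19.3% of all genes tested showed. The mean rose from 23.7 ± 3.08 to 46.1 ± 2.69 CPM (log2FC 0.96, SE 0.09, adjusted p = 1.4e-05).

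*Ush1c* (ENSMUSG00000030838, chr7:46195350-46238503, minus strand), the gene of harmonin, the PDZ scaffold to which most Usher proteins bind, had only 11, 4, 8 and 14 counts in WT and 5, 11 and 17 counts in SCA7. The counts of the genotypes overlapped, and a change was not detectable at this depth, with a log2FC of -0.20 and an SE of 0.44 (adjusted p = 0.77). With single libraries left out, the log2FC ran from -0.51 without WT replicate 2 to -0.02 without SCA7 replicate 1. It shares 120 exon bases with *Gm9860* on the other strand. *Ush1g* (ENSMUSG00000045288, chr11:115315192-115322041, minus strand), the gene of the scaffold SANS, was at 2.12, 2.32, 2.89 and 2.61 CPM in WT and at 2.73, 2.59 and 2.54 CPM in SCA7. All 3 SCA7 values lay between the lowest and highest WT value (log2FC 0.08, SE 0.13, adjusted p = 0.71, and a log2FC of 0.15 without WT replicate 3 and 0.0072 without WT replicate 1).

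*Cdh23* (ENSMUSG00000012819, chr10:60302748-60696490, minus strand), the upper cadherin of the tip link, was at 0.803, 0.741, 0.637 and 1.09 CPM in WT and at 0.780, 0.750 and 0.564 CPM in SCA7, from 34 to 71 counts. The genotypes overlapped (log2FC -0.24, SE 0.22, adjusted p = 0.43). Without WT replicate 4, the highest library, the log2FC was -0.08, and without SCA7 replicate 3, the lowest, it was -0.10. *Pcdh15* (ENSMUSG00000052613, chr10:73099342-74649737, plus strand), the lower cadherin of the link, was at 196, 171, 202 and 197 CPM in WT and at 141, 166 and 164 CPM in SCA7. Every SCA7 library was below every WT library, as for 18.3% of all genes tested, but WT replicate 2 and SCA7 replicate 2 were close to touching. The mean fell from 192 ± 13.9 to 157 ± 14 CPM (log2FC -0.28, SE 0.08, adjusted p = 0.019), within the FC limits. The call was lost without WT replicate 1, where the log2FC was nearly the same (-0.27, adjusted p = 0.052), and without SCA7 replicate 1, the lowest library (-0.21, adjusted p = 0.12). Over all alternatives the adjusted p was 0.0037 to 0.12.

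*Adgrv1* (ENSMUSG00000069170, chr13:81095068-81633154, minus strand) encodes a very large adhesion G protein-coupled receptor. Its 532, 460, 483 and 489 CPM in WT stood against 363, 367 and 372 CPM in SCA7. The 3 SCA7 libraries were nearly equal. All lay below the lowest WT library, a separation in this direction that 18.3% of all genes tested showed. The mean fell from 491 ± 29.9 to 367 ± 4.33 CPM (log2FC -0.42, SE 0.07, adjusted p = 6.6e-04), a smaller decrease than the FC limit asks. *Whrn* (ENSMUSG00000039137, chr4:63414910-63495991, minus strand), the gene of whirlin, a PDZ scaffold that binds ADGRV1 at the periciliary membrane, was at 38.4, 35.3, 28.7 and 40.0 CPM in WT and at 44.3, 39.2 and 37.8 CPM in SCA7. The genotypes overlapped, with WT replicate 3 lowest (log2FC 0.18, SE 0.10, adjusted p = 0.21). Without WT replicate 3 the log2FC was 0.09, and without SCA7 replicate 1, the highest library, it was 0.12. *Whrn* passed the test in 2 of 15 alternatives, with *Xist* as a covariate (log2FC 0.24, adjusted p = 0.012) and with the replicate number as a block (log2FC 0.25, adjusted p = 0.0028), and the highest adjusted p was 0.54. *Xist* itself was under 1 CPM in every library (log2 CPM -3.90 to -1.86) and highest in WT replicate 3, the lowest library of *Whrn*.

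*Clrn1* (ENSMUSG00000043850, chr3:58844028-58885340, minus strand), the gene of clarin 1, a small membrane protein with 4 membrane-spanning segments, was at 6.40, 6.57, 8.47 and 6.05 CPM in WT and at 12.6, 11.5 and 12.2 CPM in SCA7, from 375 to 1260 counts. Every SCA7 library was above every WT library, as for *Myo7a* and for 19.3% of all genes tested. The mean rose from 6.87 ± 1.09 to 12.1 ± 0.574 CPM (log2FC 0.82, SE 0.11, adjusted p = 1.9e-04). In both *Myo7a* and *Clrn1*, WT replicate 3 was at the end of the WT range, lowest for the first and highest for the second. Without it, the log2FC was 0.89 for *Myo7a* (adjusted p = 6.6e-07, with 2.9e-20 to 2.7e-04 over all alternatives) and 0.93 for *Clrn1* (adjusted p = 9.8e-07, with 7.3e-11 to 0.0018).

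These changes altered what share each gene has of the Usher gene reads. *Adgrv1* held 65.3 ± 1.11% of the counts on the 8 genes in WT and 58.6 ± 0.519% in SCA7. The *Myo7a* share went from 3.15 ± 0.384% to 7.37 ± 0.546% and the *Clrn1* share from 0.917 ± 0.161% to 1.93 ± 0.118%. *Pcdh15* held 25.5 ± 1.26% and 25.1 ± 1.81%. A share depends on the other members as well as on the gene itself, so the pairs were compared directly.

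A count ratio of 2 genes within a library does not depend on how libraries are scaled. The difference of the mean log2 ratio between the genotypes was tested for all 28 pairs by an exact two-sided permutation test over the 35 ways to assign the genotype labels. In 12 pairs p was 0.0286, the smallest this design allows, and after adjustment over the 28 pairs 0 passed 0.05, the smallest adjusted p being 0.0667. With this floor on p, 12 of the 28 pairs at the floor are too few for an adjusted p under 0.05, so the adjusted values are limited by the number of mice. The largest difference was that of *Myo7a* to *Adgrv1*, whose log2 ratio was -4.38 ± 0.19 in WT and -2.99 ± 0.09 in SCA7, a difference of 1.39 (exact permutation p = 0.0286). The difference was -1.24 for the log2 ratio of *Adgrv1* to *Clrn1* (exact permutation p = 0.0286) and 0.78 for that of *Myo7a* to *Whrn* (exact permutation p = 0.0286).

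The log2 ratio of *Adgrv1* to *Whrn*, the pair of the periciliary membrane, was 3.79 ± 0.20 in WT and 3.19 ± 0.13 in SCA7, a difference of -0.61 with no overlap between the genotypes (exact permutation p = 0.0286, adjusted p = 0.0667). For the tip-link pair, *Cdh23* to *Pcdh15*, it was -7.90 ± 0.33 in WT and -7.83 ± 0.34 in SCA7 (exact permutation p = 0.71). For the scaffolds *Ush1c* to *Ush1g* it was -4.19 ± 0.86 and -4.45 ± 0.57 (exact permutation p = 0.57). The ratio of the 2 upregulated genes, *Myo7a* to *Clrn1*, was 1.79 ± 0.39 and 1.93 ± 0.02 on the log2 scale (exact permutation p = 0.63), and that of the 2 lower genes, *Pcdh15* to *Adgrv1*, was -1.36 ± 0.09 and -1.23 ± 0.12 (exact permutation p = 0.14).

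**Figure D3:**
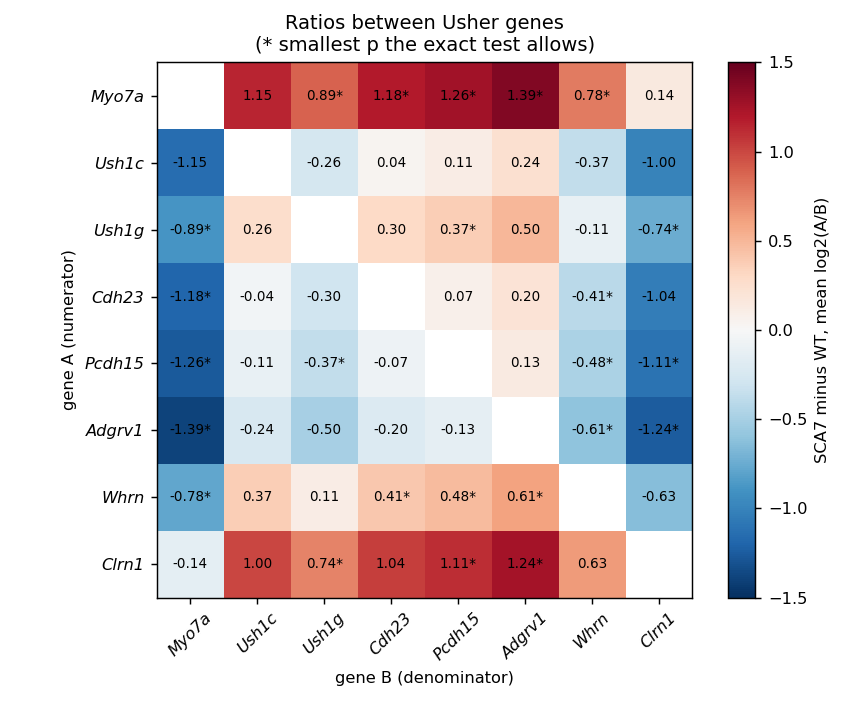
Difference between SCA7 and WT in the mean log2 count ratio of gene A (row) to gene B (column), for all 28 pairs of Usher genes shown in both directions; red is higher in SCA7 and blue lower, and a star marks p = 0.0286 in the exact test. The *Myo7a* and *Clrn1* rows are red against most of the other genes and near 0 against each other (0.14).

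Genes of other retinal cell types moved between the same libraries, and their part in the changes of the Usher genes was not tested. Of the rod markers, 10 of 10 were downregulated (median log2FC -1.20, with the smallest decrease, -0.67, in *Pde6a*), beside 7.91% of all genes tested. The summed level of the rod markers was 64094–66114 CPM in WT and 17287–22302 CPM in SCA7. Of the cone markers, 10 of 10 were downregulated (median log2FC -1.96, from -6.39 for *Opn1mw*, a cone pigment, to -0.83 for *Cngb3*), with 1508–1808 CPM in WT and 274–303 CPM in SCA7. The decreases of *Adgrv1* (log2FC -0.42) and *Pcdh15* (log2FC -0.28) were thus smaller than that of any of these 20 markers.

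The pigment epithelium, which lies against the photoreceptors and adheres to dissected retina in varying amounts, also uses *Myo7a*. Between the genotypes its markers moved opposite to *Myo7a*: 7 of 10 were downregulated and 0 upregulated (median log2FC -1.50, from -3.57 for *Rgr* to 0.08 for *Best1*), and their summed level was 137–259 CPM in WT and 44.1–75.8 CPM in SCA7. *Rpe65*, the retinoid isomerase of these cells, which was named after its values were seen, was at 24.1, 22.5, 10.6 and 27.3 CPM in WT and at 6.12, 4.49 and 2.58 CPM in SCA7. Of 7 genes of melanin synthesis and the melanosome, 1 was upregulated and 0 downregulated, beside 7.47% and 7.91% of all genes tested (median log2FC 0.14, from -0.90 for *Pmel* to 1.17 for *Slc45a2*), with summed levels of 27.5–51.6 CPM in WT and 14.7–36.1 CPM in SCA7. The ranges of the summed melanin genes overlapped, while those of the pigment epithelium markers did not.

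Müller glia span the retina and are the cells from which *Clrn1* is known. Of their 10 markers 3 were upregulated and 0 downregulated, beside 7.47% and 7.91% of all genes tested. The median log2FC of the 10 was 0.32, from -0.36 for *Glul*, the glutamine synthetase, to 1.04 for *Clu*. The summed level was 4787–5580 CPM in WT and 5368–5640 CPM in SCA7. Of 10 genes of reactive glia, 7 were upregulated and 0 downregulated (median log2FC 1.97, from -0.18 for *Tnc* to 3.36 for *Serpina3n*), with 283–311 CPM in WT and 634–725 CPM in SCA7. Microglia markers were upregulated in 10 of 10 cases (median log2FC 1.22, with the largest increase, 1.53, in *C1qc*), with 80.2–102 CPM and 173–194 CPM. *Clrn1* (log2FC 0.82) lay between the medians of the Müller and the reactive glia markers. Among the other retinal neurons the median log2FC was -0.42 for bipolar, -0.28 for amacrine, -0.31 for horizontal and -0.11 for ganglion cell markers. Downregulated were 3, 1, 0 and 0 genes in this order, and upregulated 0, beside 7.91% and 7.47% of all genes tested. Without the FC limits, 8 of 10 bipolar, 5 of 10 amacrine, 2 of 5 horizontal and 1 of 8 ganglion cell markers were lower at an adjusted p under 0.05 and 0 higher, while 6 of 10 Müller glia markers were higher and 1 lower, beside 14.2% of all genes tested in each direction.

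**Figure D4:**
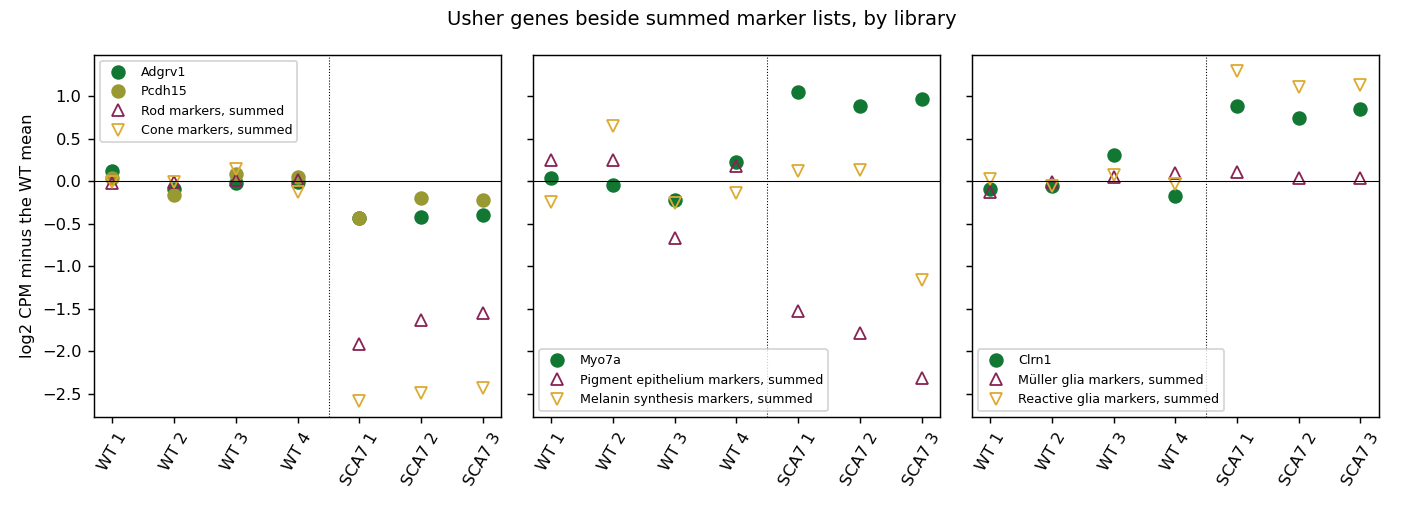
Log2 CPM minus the WT mean in each library for the 4 Usher genes that differed (filled circles) and for the summed CPM of 2 marker lists each (open triangles). *Adgrv1* and *Pcdh15* fell far less than rod and cone markers, *Myo7a* was higher and the summed pigment epithelium markers lower in SCA7 than in WT, though both were lowest of the WT libraries in WT replicate 3, and *Clrn1* rose less than the summed reactive glia genes (283–311 CPM in WT, 634–725 CPM in SCA7).

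Among 16 genes listed as partners of Usher proteins, bound directly or through another protein, 15 could be tested. Of the 15, 2 were downregulated, 1 upregulated and 12 not called (median log2FC -0.14), beside 7.91% downregulated and 7.47% upregulated among all genes tested. The upregulated partner was *Rab27a*, the GTPase that sits on melanosomes, which rose from 9.73–12.7 CPM to 18.9–21.1 CPM (log2FC 0.81, SE 0.09, adjusted p = 5.0e-05). *Myrip*, the linker between RAB27A and myosin VIIa, fell in the same libraries, from 77.0–85.7 CPM to 47.6–56.2 CPM (log2FC -0.68, SE 0.07, adjusted p = 2.1e-05). The motor and the GTPase of this complex were thus higher, and the linker lower. The second decrease was that of *Spag5*, a spindle protein reported to bind an Usher protein, from 17.0–20.5 CPM to 9.32–10.5 CPM (log2FC -0.89, SE 0.08, adjusted p = 1.0e-05).

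Without the FC limits, 5 of the 15 partners were lower and 4 higher, beside 14.2% of all genes tested in each direction. *Cdhr1* (log2FC -0.29) and *Prom1* (log2FC -0.26), proteins of the base of the outer segment discs, were among the 5, and they fell by about as much as *Pcdh15*. *Slc4a7*, a bicarbonate transporter bound by harmonin, fell by 0.36 on the log2 scale, while *Magi2* (log2FC 0.34), *Mpp1* (log2FC 0.28) and *Myo1c* (log2FC 0.35) rose. These 6 genes, and *Cib2*, lie outside the rule for named genes and were chosen after their values were seen. *Cib2*, a calcium sensor of the hair-cell channel complex, had 10.0–13.4 CPM in the WT libraries, a range that held the 11.0–11.7 CPM of SCA7 (log2FC -0.03, SE 0.10, adjusted p = 0.85).

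The 6 close paralogs of the Usher genes, which serve the brush border of the gut in part, were at or near 0: no library had more than 9 counts of any of them, *Clrn3* had 0 counts in all 7 libraries, and none passed the filter. Their summed level was 0.168–0.356 CPM in WT and 0.185–0.244 CPM in SCA7. These counts are small beside the 1075 or more of *Myo7a* and the 375 or more of *Clrn1* in each library.

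Of 24 other genes of the hair bundle in which mutations cause deafness, 15 could be tested, with 3 downregulated, 1 upregulated and 11 not called (median log2FC -0.01), again beside 7.91% and 7.47% of all genes tested. *Fscn2*, an actin-bundling protein shared by photoreceptors and stereocilia, fell from 277–382 CPM to 174–216 CPM (log2FC -0.80, SE 0.11). *Gpsm2*, a regulator of G proteins that sets bundle polarity, fell from 263–274 CPM to 170–175 CPM (log2FC -0.64, SE 0.06). *Triobp*, which bundles actin in the rootlets, rose from 12.6–16.5 CPM to 18.5–20.3 CPM (log2FC 0.44, SE 0.09). The third decrease was that of *Myo15*, the motor that carries whirlin to the tips of stereocilia, which had 39–63 counts in WT and 12–23 counts in SCA7 (log2FC -1.76, SE 0.26), and it was named after its values were seen, being under 1 CPM. The 9 genes not tested include *Tmc1* and *Tmc2*, subunits of the hair-cell channel, with at most 8 and 5 counts in a library.

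Of 5 genes behind syndromes that resemble Usher syndrome, *Arsg*, a lysosomal sulfatase, was downregulated, from 57.8–81.2 CPM to 37.8–46.1 CPM (log2FC -0.69, SE 0.11, adjusted p = 0.0012), and 4 were not called (median log2FC -0.05). Over the 3 lists and the paralogs, 35 of 51 genes were tested, of which 6 were downregulated and 2 upregulated, beside 7.91% and 7.47% of all genes tested.

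**Figure D5:**
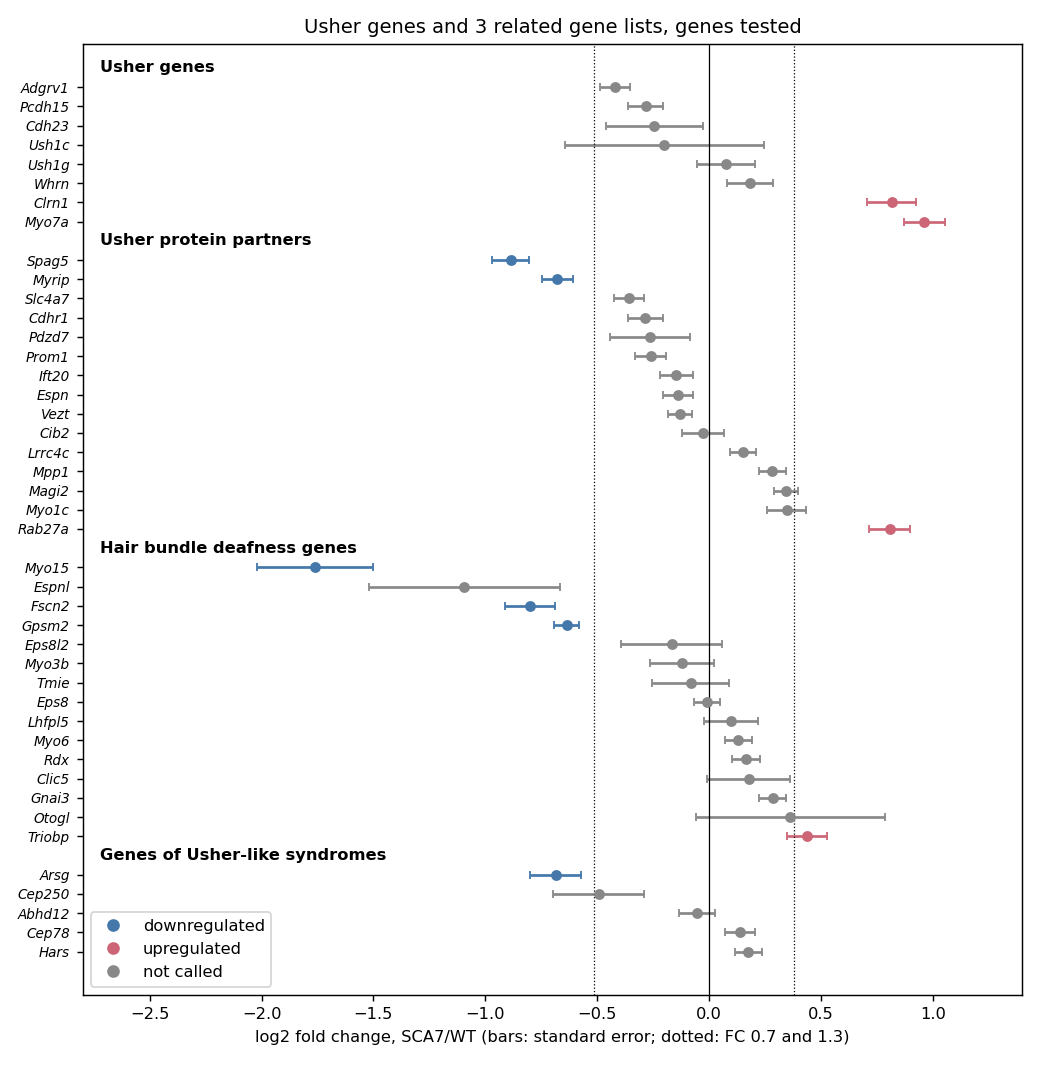
Log2 fold change (SCA7/WT) with its standard error for the 8 Usher genes and the 35 tested genes of the 3 related lists; blue is downregulated, red upregulated, grey not called, and the dotted lines mark FC 0.7 and 1.3. *Myo7a* and *Clrn1* are the 2 red points among the Usher genes, and *Rab27a* and *Triobp* the red points of the lists.

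Lastly, the genes whose profile over the 7 libraries was nearest to each member were listed among 13260 protein-coding genes, by the root mean square difference in log2 CPM after subtraction of the WT mean. Nearest to *Myo7a* were *Foxp4* (0.0593) and *Bmp1* (0.0663), and nearest to *Clrn1* were *Vcam1* (0.0730) and *Gstm4* (0.0774). For *Adgrv1* they were *L3hypdh* (0.0282) and *Prpf39* (0.0399), and for *Pcdh15* *Tmem91* (0.0441) and *Slc25a10* (0.0490). *Whrn* was nearest to *Phf21b* (0.0345) and *Zfp513* (0.0364), *Ush1g* to *Stk32a* (0.0466) and *Ica1l* (0.0480), and *Cdh23* to *Kl* (0.0789) and *Gabpb2* (0.0977). *Ush1c*, with its low counts, had no near neighbour (*Gsc2* at 0.339, *Shcbp1* at 0.346). Profiles over 7 libraries that share their genotype difference and their depth are a description of likeness only.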

How the data were processed

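Total RNA was extracted by the authors from the 2 retinas of each mouse, depleted of ribosomal RNA, made into stranded libraries and sequenced as single reads of 50 bases. The authors mapped the reads to mm10 with Tophat 2.0.14 and bowtie2 2.1.0, counted them per gene of Ensembl release 90 with HTSeq 0.6.1, and deposited the raw counts without normalization. The HTSeq mode and strand setting are not given in the sources used here. The 8 members, the gene lists and the tests were chosen with earlier results of these data known. Names, positions and transcript lengths came from GENCODE M21 (GRCm38), which covered 52403 of the 52550 genes.

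Genes were kept by filterByExpr by genotype, and libraries were scaled by TMM and compared in 1 fit over 20128 genes with the quasi-likelihood test of edgeR 4.0.16 (robust, no covariates) and Benjamini-Hochberg adjustment. A gene was called at an adjusted p under 0.05 with FC under 0.7 or above 1.3. RPK is the count divided by the DESeq2 size factor and the median transcript length in kb. Alternatives were DESeq2 size factors, DESeq2 1.42.0, limma-voom (limma 3.58.1), no filter, at least 10 counts in every library, TMM without rod and cone markers and the 500 highest genes, *Xist* as a covariate, the replicate number as a block, an adjusted p under 0.01, no FC limit, the union of exons as length, 0.5 counts added to ratios, and each library left out in turn (R 4.3.3, Python 3.11.15, scipy 1.17.1). Profiles used 0.01 CPM added. Total counts between 56497675 and 96635832 make counting error small except for *Ush1c*, *Cdh23* and, to a lesser degree, *Ush1g* (124 to 261 counts). Errors are SDs over mice or standard errors of the fit. No 2 libraries of a group were near-identical in their counts.

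Named are all 8 members, called genes of the pathway lists with a mean of at least 1 CPM, genes at or near 0, the highest and lowest marker of each list set beside a member, and the 2 nearest profiles of each member. The single values of 2 marker genes are not reported here. On simulated counts for these 20128 genes, with a log2 change of 1 between the genotypes, the edgeR step recovered 151 of 196 changed genes, and 138 of 142 at 1 CPM or more, with 6 false calls. The same fit with the block made 22 false calls, over the limit on false calls set for the step, so that limit was then kept for the fits without it. Smaller changes, such as those of *Adgrv1* and *Pcdh15*, were not simulated. The other assays of the study were not analysed here.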

Additional observations from a re-analysis of the deposited data

Results flagged for a closer look

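Each group of 4 WT libraries was checked for a library far from the others (gap over range above 0.829), for the 8 Usher genes, the 8 called genes of the related lists and 6 summed marker lists. Of 22 groups checked, 2 exceeded the limit, and chance does so in about 1 of 20. The summed pigment epithelium markers in WT were 137 CPM in replicate 3 and 248, 259 and 259 CPM in the others (gap over range 0.909). The summed melanin synthesis markers in WT were 51.6 CPM in replicate 2 and 27.5, 27.8 and 29.8 CPM in the others (0.904). *Myo7a* was at 24.1, 22.8, 20.2 and 27.6 CPM in WT replicates 1 to 4. Without WT replicate 3 the log2FC of *Myo7a* was 0.89 (adjusted p = 6.6e-07, edgeR). No Usher gene exceeded the limit.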

How the results depend on the processing

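*Myo7a* (log2FC 0.89 to 1.05), *Clrn1* (0.76 to 0.93) and *Adgrv1* (-0.45 to -0.38) kept their direction and an adjusted p under 0.05 in all 15 alternatives, and *Pcdh15* (-0.34 to -0.21) in 13 of 15. The upregulated Usher genes were 2 in every fit. The downregulated were 0 in every fit with the FC limit and 2 without it, and those lower at an adjusted p under 0.05 were 1 at an adjusted p under 0.01. Each library left out in turn gave 1 to 2 lower Usher genes (1 without WT replicate 1 and 1 without SCA7 replicate 1, where *Pcdh15* was lost), 1 to 2 upregulated partners (2 without WT replicate 4 and 2 without SCA7 replicate 2) and 1 to 2 downregulated genes of Usher-like syndromes (2 without WT replicate 3). The replicate numbers did not pair the mice: deviations from the group means of same-numbered libraries correlated at 0.0053, 0.204 and 0.0893. Only SCA7 replicate 2 correlated best with its own number. With the replicate block, the log2FC of *Ush1c* reversed to 0.020 (adjusted p = 0.98), *Whrn* passed the test (0.25), and the upregulated partners were 2. The cause was not tested. With the union of exons as length the WT levels were 191 RPK for *Myo7a*, 2.72 for *Ush1c*, 3.33 for *Cdh23*, 556 for *Pcdh15*, 1362 for *Adgrv1*, 335 for *Whrn* and 123 for *Clrn1*, since that length is longer. *Ush1c* fell below the filter, and so had no value, without WT replicate 1, without WT replicate 4 and at 10 counts in every library. In the pair ratios 0.5 added counts left 0 pairs past 0.05, and without a library the exact test cannot pass 0.05. Depth limits *Ush1c* and *Cdh23* most.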
